A study of Mus musculus with 3 samples.

Results

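The nuclear genes of the respiratory chain were described in cytosolic RNA of mouse macrophages, complex by complex. Members were the genes whose symbol begins with Nduf, Sdha to Sdhd, Uqcr, Cox followed by a digit, or Atp5, with at least 1 protein-coding transcript and no pseudogene suffix. The rule found 107 genes under 106 symbols among 55536 Ensembl genes, 22028 of them protein-coding. By name, 46 belonged to complex I, 8 to complex II, 8 to complex III, 27 to complex IV and 18 to complex V. Of these, 75 encode structural subunits (37, 4, 8, 10 and 16 in complexes I to V), and the others are assembly factors, tissue-specific isoforms, paralogs and 1 duplicate identifier of Atp5o.

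The libraries came from bone marrow-derived macrophages of C57BL/6J mice, phagocytes grown from marrow cells, in 1 condition with biological replicates 1, 2 and 3. Every culture had met Lipid A, the Toll-like receptor 4 agonist of bacterial lipopolysaccharide, at 100 ng/ml for 12 h, had then spent 12 h without it, and had received 100 ng/ml again for 50 min before the cytosol was taken. Total RNA depleted of ribosomal RNA was sequenced, and sex and age were not recorded. With no untreated or singly treated cells here, the comparisons are between genes and complexes within each library, and the replicates give their spread. The labels name 1 strain-level donor entry and separate samples, so the spread is that between cultures as far as they tell.

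The respiratory chain passes electrons from NADH through complex I, or from succinate through complex II, to ubiquinone, then through complex III and cytochrome c to oxygen at complex IV. Complexes I, III and IV pump protons across the inner mitochondrial membrane, and complex V, the ATP synthase, uses the gradient to make ATP. Mitochondrial DNA encodes membrane subunits of every complex except complex II, and all other subunits are made from nuclear genes in the cytosol and imported. In macrophages, stimulation through Toll-like receptor 4 is known to shift metabolism towards glycolysis, and succinate oxidation by complex II has been tied to inflammatory signalling.

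Replicates 1, 2 and 3 held 47972062, 54409436 and 53491957 expected counts. Macrophage markers were present throughout, with a median of 442 TPM ± 97.3 (SD, n = 3) and 10 of 10 markers expressed. Marker lists of neutrophils, lymphocytes, erythroid cells, fibroblasts, endothelium and muscle had medians of at most 0.403 TPM, with Kdr at a mean of 6.11, S100a9 at 5.41, S100a8 at 3.80 and Cd79b at 1.33 TPM. TPM, the deposited unit of transcript abundance, is a share after division by transcript length, and it depends on what else a library holds: protein-coding genes took 33.3%, 26.1% and 37.0% of TPM in replicates 1, 2 and 3. Levels of different genes are therefore compared within a library in TPM, and replicates are compared in CPM, counts as a share of the TMM-scaled library.

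Nearly all chain genes were expressed, and in TPM the structural subunits stood well above the ordinary expressed gene. All 3 replicates reached 1 TPM for 98 of the 107 members, or 91.6%, against 41.1% of all protein-coding genes. The 9 others were the complex IV tissue isoforms Cox4i2, Cox6b2, Cox7a1, Cox7b2, Cox8b and Cox8c, the paralog Ndufa4l2, the complex II assembly factor Sdhaf3 and the second Atp5o identifier. Of the 75 structural subunits, 74 lay above the median expressed coding gene in every replicate, and Ndufb4 was the exception. Of the 21 assembly factors, which help build the complexes without staying in them, 5 did so. The contrast depends on the division by length, as the median effective length was 478 bases for structural subunits and 2303 for expressed coding genes. In CPM their medians were 38.8 and 31.9. Of the complexes, only complex I lay below the expressed coding genes, at 23.6 CPM. The median assembly factor had 4.59, 3.94 and 5.62 TPM in replicates 1, 2 and 3, against 9.78, 7.29 and 10.29 TPM for the median expressed coding gene.

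The complexes differed in level in the same order in every replicate, with complex IV highest and complex I lowest. The median structural subunit of complex IV had 135.3, 112.8 and 136.3 TPM in replicates 1, 2 and 3. That of complex V had 73.9, 60.3 and 81.9 TPM, and that of complex III had 66.1, 59.6 and 73.4 TPM. For complex II the values were 47.4, 38.9 and 52.6 TPM, and for complex I 32.2, 27.1 and 35.3 TPM. Replicate 2 was lowest for each complex, as it was for expressed coding genes as a whole.

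Within a library, log2(TPM + 1) of the median complex IV subunit exceeded that of complex I by 1.99 ± 0.06 (SD, n = 3), and the mean ratio of the medians was 4.07. The difference between complexes IV and V was 0.83 ± 0.09. Complex V exceeded complex III by only 0.11 ± 0.08, with single values of 0.16, 0.02 and 0.16, so these neighbours differed by little more than their spread. Complex III exceeded complex II by 0.52 ± 0.07 and complex II exceeded complex I by 0.53 ± 0.03. Each of the 10 pairwise differences had the same sign in 3 of 3 replicates, and no p is given for these summaries over chosen members.

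The order belongs to structural subunits and to levels per length. Over every gene of the rule, complex IV was last, at a median of 22.6 TPM, with its 7 tissue isoforms and 9 assembly factors counted in. In CPM, which is not divided by length, complex II came first, at a median of 90.1 CPM against 64.6 CPM for complex IV. Its 4 genes have longer mRNAs, with a median effective length of 1228 bases, against 418 bases in complex IV. Over the structural subunits, level and effective length correlated at a Spearman rho of -0.47 across 75 genes, and at -0.66 across the 37 of complex I. Across 9059 expressed coding genes rho was -0.16. These are descriptions across genes, which share the libraries and the length correction.

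**Figure D1:**
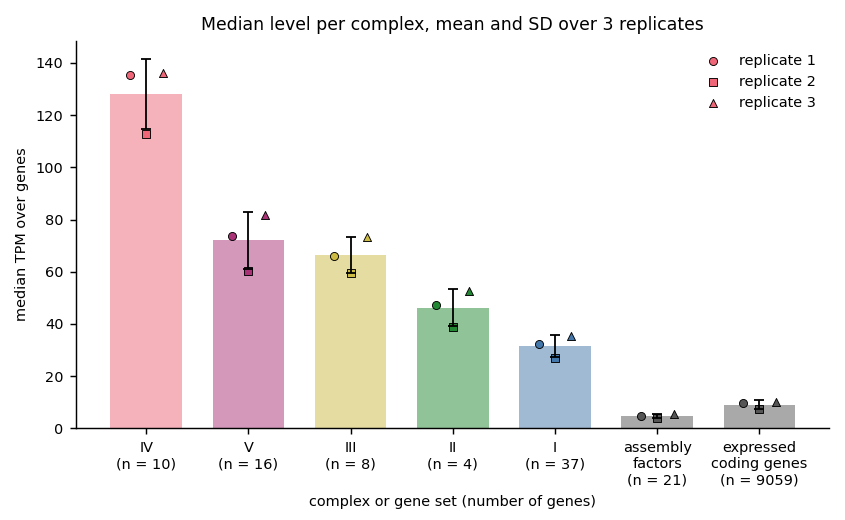
Median TPM over the structural subunits of each complex, over assembly factors and over expressed coding genes, on a linear axis. Bars are the mean and error bars the SD of 3 replicates, which are shown as points; complex IV stands highest in every replicate and the assembly factors lie below the expressed coding genes.

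Complex I, the NADH dehydrogenase, spanned a 9.91-fold range of mean TPM. Its lowest subunit, Ndufb4, shares sequence with a pseudogene of higher level, as described further on, which limits this range. The highest gene levels of the complex, over all transcripts, were those of accessory subunits. Ndufb8 (chromosome 19, 44548572 to 44555440 on mm10) had 79.5, 67.4 and 82.5 TPM in replicates 1, 2 and 3. Ndufa3 had 71.6, 53.2 and 98.9 TPM and Ndufa1, an X-linked gene, had 77.1, 59.9 and 80.1 TPM. Over all transcripts the 3 overlap and their order is not settled by these replicates. On protein-coding transcripts alone Ndufa3 had 42.9, 31.4 and 51.2 TPM, below Ndufb8, Ndufa1 and Ndufc2 in every replicate.

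The nuclear core subunits, which carry out the electron transfer of the complex, were even in level by comparison. Ndufs3 averaged 33.5 ± 7.29 TPM, Ndufs7 30.9 ± 3.97, Ndufv2 28.5 ± 4.02 and Ndufs8 24.4 ± 4.26 (SD, n = 3). Ndufs1, the largest iron-sulphur subunit, had 17.0, 12.9 and 18.3 TPM. Ndufv1, which binds NADH and FMN, was lowest of the core with 12.0, 10.1 and 13.4 TPM. Neither overlapped Ndufs3, Ndufs7, Ndufv2 or Ndufs8 in any replicate pairing. The median accessory subunit exceeded the median core subunit by a ratio of 1.16 ± 0.03. The NADH-oxidising N module had a median of 30.9 TPM ± 3.85 and the quinone-reducing Q module 31.2 ± 4.43. The median of the Ndufb subunits of the membrane arm was 25.8, 19.0 and 28.2 TPM, below that of both modules in every replicate.

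Ndufa4, counted here with complex I by its name, is now known as a subunit of complex IV. It had 68.1, 49.7 and 62.8 TPM, and moving it to complex IV left the order of the complexes as it was. Among the 8 complex I assembly factors, ranked by mean TPM over all transcripts, Ndufaf8 was highest with 9.11, 7.40 and 9.58 TPM. Ndufaf7 was lowest with 2.63, 1.95 and 1.83 TPM. All 8 therefore lay below the lowest core subunit.

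The 4 subunits of complex II, succinate dehydrogenase, lay within a 2.00-fold range. Sdhb, the iron-sulphur subunit (chromosome 4, 140961203 to 140979193), had 75.2, 66.7 and 72.8 TPM. Sdha, the flavoprotein that binds succinate, had 51.5, 38.0 and 58.2 TPM. The membrane anchors Sdhd and Sdhc averaged 43.4 ± 3.66 and 35.7 ± 5.86 TPM (SD, n = 3). Sdhb was highest in every replicate, at 2.03 ± 0.25 times Sdhc.

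The complex II assembly factors were far lower and spread further. Sdhaf2, which helps attach the flavin to Sdha, had 18.2, 14.9 and 19.3 TPM. Sdhaf4 had 4.34, 4.57 and 6.63 TPM and Sdhaf1, which aids iron-sulphur insertion into Sdhb, had 1.86, 1.34 and 1.58 TPM. Sdhaf3 stood at 0.51, 0.25 and 0.64 TPM, from 127, 87 and 128 counts. None of these 4 genes overlapped a structural subunit of the complex.

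In complex III, the cytochrome c reductase, small accessory subunits exceeded the large ones. Uqcrh, the hinge protein (chromosome 4, 116066965 to 116075071), had 101.3, 95.0 and 114.8 TPM. Uqcrb had 103.0, 82.8 and 100.4 TPM and Uqcrq had 80.8, 69.3 and 109.3 TPM. At the other end, Uqcrfs1, the Rieske iron-sulphur protein and the only nuclear catalytic subunit in the rule, had 25.5, 19.7 and 28.9 TPM. Uqcrc2, a core structural protein, was lowest with 21.7, 17.4 and 23.3 TPM. The 3 highest and these 2 genes did not overlap in any replicate. Cyc1, the haem subunit outside the symbol rule, averaged 17.5 ± 2.13 TPM, and its electron acceptor Cycs, cytochrome c, 17.7 ± 2.88 TPM.

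Complex IV, cytochrome c oxidase, held 7 of the 10 most abundant mRNAs among the nuclear members. Cox4i1 (chromosome 8, 120668222 to 120674207) had 194.2, 171.4 and 223.0 TPM, Cox8a had 168.9, 142.6 and 191.1 TPM and Cox5a had 143.2, 144.7 and 188.5 TPM. Cox4i1 was the highest of the 3 in every replicate. Its mean lay at percentile 97.4 of expressed coding genes. Cox7b, X-linked, was the lowest structural subunit with 33.6, 23.5 and 39.4 TPM, and it was below each of the other 9 in every replicate.

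The copper chaperone Cox17 stood apart from the other assembly factors of complex IV. It had 101.1, 80.3 and 102.1 TPM, which was 15.1 ± 2.22 times the median of the other 8 (SD, n = 3). Over all transcripts Cox11, which takes copper on to the enzyme, was lowest with 3.18, 2.82 and 3.61 TPM. On protein-coding transcripts alone Cox19 had 2.16, 1.61 and 2.03 TPM, below Cox11 in every replicate. Cox7a2l, a factor tied to supercomplexes of complexes III and IV, had 78.3, 55.3 and 80.6 TPM, and what its product does in these cells was not tested.

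Complex V spanned a 9.20-fold range of mean TPM. Atp5b, the catalytic beta subunit of the F1 head (chromosome 10, 128083273 to 128090391), had 246.1, 194.5 and 284.6 TPM, the highest level of all members in every replicate. Atp5a1, which alternates with it in the head in equal number, had 105.3, 90.3 and 106.7 TPM. The Atp5b to Atp5a1 ratio over all transcripts was 2.39 ± 0.26 (SD, n = 3). Part of the Atp5b level lay on transcripts annotated as non-coding, of which Atp5b-206 had 101.0, 77.9 and 101.3 TPM. On protein-coding transcripts alone Atp5b averaged 128 ± 17.3 TPM, beside 100 ± 8.76 TPM for Atp5a1, so the 2 genes lay much closer there. Cox4i1, at 175 ± 23.7 TPM, was then the highest member.

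Of the other F1 subunits, Atp5e (epsilon) had 89.6, 85.6 and 136.7 TPM, Atp5c1 (gamma) averaged 67.6 ± 7.11 and Atp5d (delta) 52.6 ± 5.57 TPM. Atp5l, the g subunit in the membrane, averaged 129 ± 23.3 TPM, second to Atp5b in the complex. The c-ring, the rotor that protons turn, is made from 3 genes that encode the same mature protein. Atp5g3 averaged 76.4 ± 14.3 TPM, Atp5g2 54.3 ± 10.9 and Atp5g1 26.3 ± 2.67, and the 3 together gave 157 ± 27.2 TPM. Atp5g1 was the lowest structural subunit of the complex over all transcripts in the gene table. On protein-coding transcripts alone Atp5j averaged 19.8 TPM, below Atp5g1 at 26.3 TPM. The Atp5g2 value depended on how shared reads were divided, as described further on. Atp5s, which carries the Atp5 name without being a structural subunit, had 1.67, 1.80 and 2.08 TPM.

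**Figure D2:**
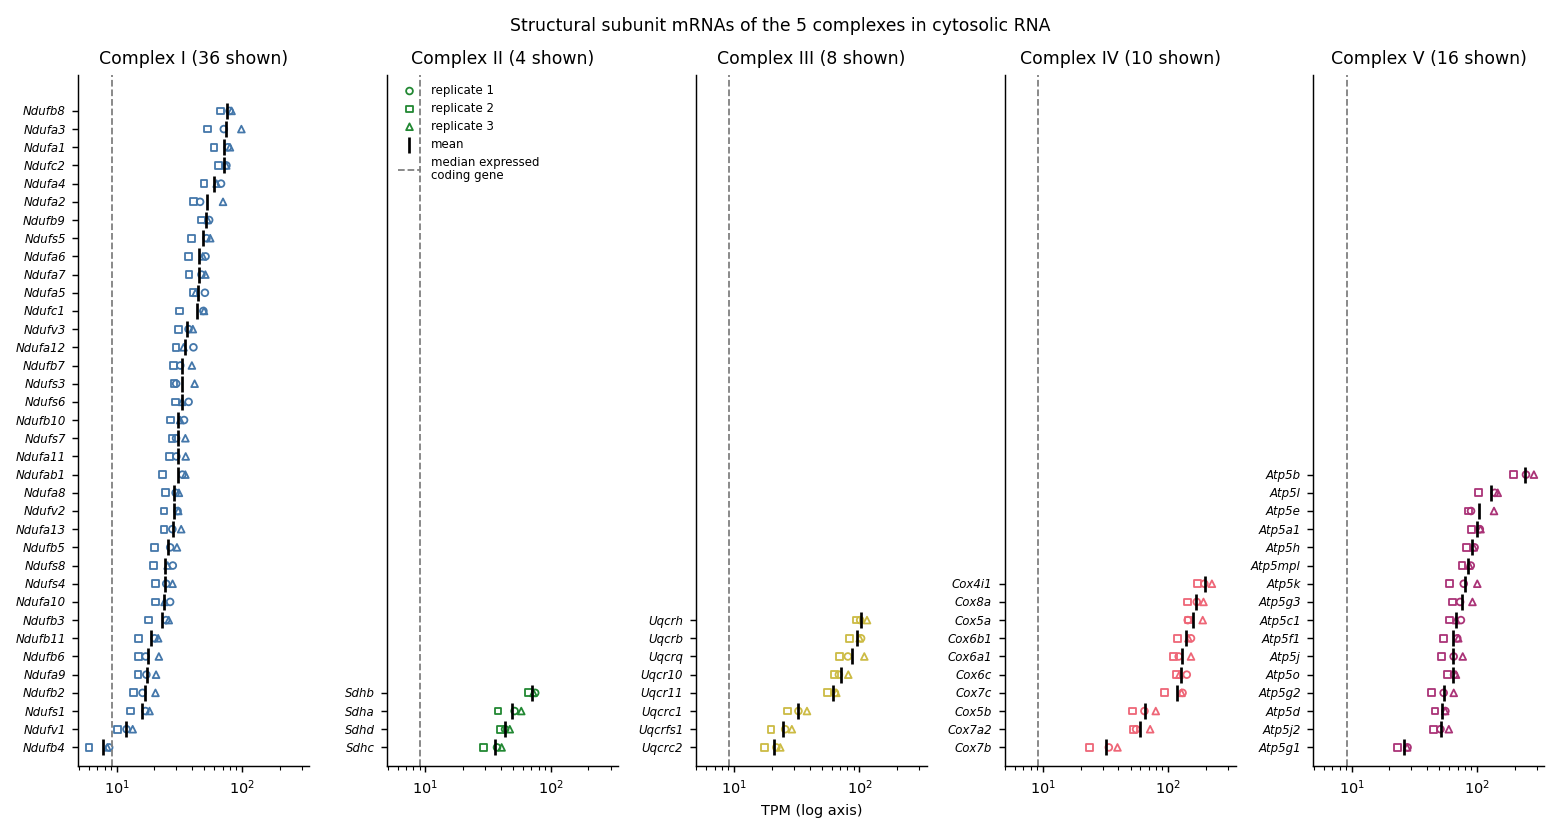
TPM of 74 of the 75 structural subunits on a log axis, 1 panel per complex, with circles, squares and triangles for replicates 1, 2 and 3 and a black tick for the mean. The dashed line marks the median expressed coding gene, and Ndufb4 is the subunit to its left.

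The tissue forms of complex IV, which replace the widely expressed forms in muscle, lung or testis, were almost absent. In the gene table no count fell on Cox4i2, Cox7b2, Cox8b or Cox8c in any library. A count of 0 allows up to 0.0598, 0.0552 and 0.0584 CPM in replicates 1, 2 and 3 (3 counts in the library, counting error alone). Set against a floor of 3 counts per library, Cox4i1 was at least 2348-fold higher than Cox4i2. On the same basis Cox7b was at least 256-fold higher than Cox7b2, and Cox8a at least 577-fold higher than Cox8b and at least 956-fold higher than Cox8c. These bounds hold for the gene table only. The second transcript table, unscaled, gave Cox4i2 0.057, 0.0064 and 0.014 TPM in replicates 1, 2 and 3. There Cox8b had 0.049, 0.020 and 0 TPM, Cox7b2 had 0, 0.0099 and 0 TPM, and Cox8c had 0 TPM throughout. Cox6b2 had 2, 0 and 1 counts, beside 151.9, 118.4 and 145.1 TPM for Cox6b1. The hypoxia-linked paralog Ndufa4l2 had 0, 0 and 2 counts.

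Reads fell on both forms in the pairs Cox7a2 with Cox7a1 and Cox6a1 with Cox6a2. Cox7a2 had 55.4, 52.7 and 71.7 TPM, beside 0.53, 0.72 and 0.73 TPM for the muscle form Cox7a1 from 7, 13 and 10 counts, and the ratio of means was 90.8. Cox6a1 had 121.3, 109.7 and 152.0 TPM, beside 2.54, 1.63 and 5.72 TPM for the heart and skeletal muscle form Cox6a2, and the ratio of means was 38.7. All 8 pairs had the same sign in 3 of 3 replicates. An exact two-sided sign-flip permutation test gave p = 0.25 for each pair, adjusted p = 0.25 over the 8 pairs, which is the smallest p that 3 replicates allow.

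Cox6a2 was the only tissue form that reached 1 TPM throughout. Its counts were 83, 77 and 192, highest in replicate 3. It lies on the minus strand of chromosome 7, 128205435 to 128206387, inside the span of the integrin gene Itgad on the plus strand, which had 0.02, 0.03 and 0.02 TPM. The muscle markers Myh1 and Myh4 had 0 TPM in all libraries, and Acta1, Ckm and Tnnt3 had at most 0.14 TPM. No source used here states the strand setting, so antisense reads could not be told apart.

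**Figure D3:**
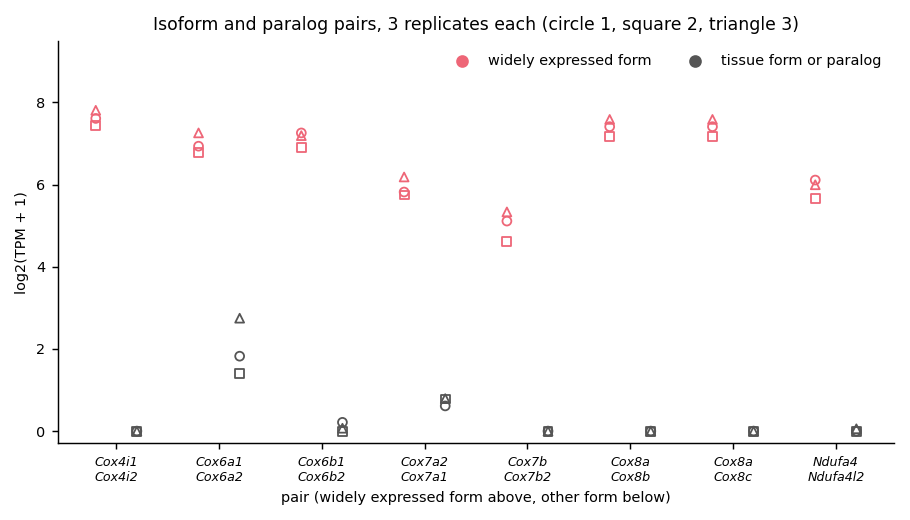
log2(TPM + 1) of the widely expressed form (red) and of the tissue form or paralog (grey) in 8 pairs, with 3 replicates per form. Cox6a2 is the highest grey gene and Cox4i2, Cox7b2, Cox8b and Cox8c lie at 0.

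The promoters of these genes are known for binding sites of NRF1, of ETS factors such as GABP and of YY1. The RefSeq promoter table, on GRCm38.p6, gives 250 bases before and 50 after each start. It matched 85 of the 106 symbols and 62 of the 75 structural subunits. The letters searched on both strands were GCGCATGCG for NRF1, CCGGAAGT for ETS factors and AAGATGGCG for YY1. At least 1 of the 3 was found in 19 of the 62 structural subunits, or 30.6%, against 19.0% of 7264 expressed coding genes and 7.48% of 27025 genes in the table.

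The NRF1 letters were in 12.9% of the structural subunits, against 4.79% of expressed coding genes. For YY1 the shares were 11.3% and 4.43%, and for ETS factors 8.06% and 11.0%. Of the 33 complex I subunits matched, 5 held the YY1 letters, 2 the NRF1 letters and 1 the ETS letters. In complex V, 6 of 13 matched subunits held 1 of the motifs, and in complex IV 2 of 8. Complexes II and III had fewer than 80% of their subunits in the table, so no share is given for them. Over single promoters, of which the table holds 32851, 1.75% held the NRF1 letters, 3.89% the ETS letters and 1.40% the YY1 letters.

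Shown here, for each motif, is the promoter of the most abundant structural subunit that holds it, on the strand of the gene, with the matching letters in capitals. Atp5l (chr9:44920693-44920992, minus strand) holds the NRF1 letters on the reverse strand, beginning 241 bases before the start. Cox8a (chr19:7217567-7217866, minus strand) holds the ETS letters in 2 places on the reverse strand, the first beginning 6 bases before the start. Atp5j, which encodes coupling factor 6 of the stalk (chr16:84834927-84835226, minus strand), holds the YY1 letters 88 bases before the start.
Atp5l: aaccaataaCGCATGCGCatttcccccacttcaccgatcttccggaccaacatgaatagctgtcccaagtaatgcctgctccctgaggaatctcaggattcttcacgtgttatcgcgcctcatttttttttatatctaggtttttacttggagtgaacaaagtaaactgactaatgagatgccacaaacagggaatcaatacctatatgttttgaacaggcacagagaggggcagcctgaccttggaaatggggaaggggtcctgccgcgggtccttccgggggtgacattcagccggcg
Cox8a: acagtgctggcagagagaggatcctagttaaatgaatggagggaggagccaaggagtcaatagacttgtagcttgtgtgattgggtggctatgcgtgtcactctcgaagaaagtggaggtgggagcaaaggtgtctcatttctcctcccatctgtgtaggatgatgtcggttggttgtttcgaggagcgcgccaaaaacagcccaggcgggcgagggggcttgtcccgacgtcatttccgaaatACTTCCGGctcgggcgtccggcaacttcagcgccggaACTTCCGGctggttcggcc
Atp5j: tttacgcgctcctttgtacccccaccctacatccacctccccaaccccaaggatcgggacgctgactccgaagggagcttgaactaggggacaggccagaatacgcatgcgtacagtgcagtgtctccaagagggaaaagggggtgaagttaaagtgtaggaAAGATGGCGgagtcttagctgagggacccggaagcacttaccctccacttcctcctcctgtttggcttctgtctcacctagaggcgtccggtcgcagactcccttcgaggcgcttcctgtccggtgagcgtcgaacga
The 19 subunits with a motif had a median of 52.0 TPM and the 43 without one a median of 45.4 TPM, and both groups ranged widely, at 17.6 to 167.5 and 7.72 to 241.7 TPM. A match is only a run of letters and does not show that a factor was bound.

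Transcripts of the factors themselves were modest. Esrra, an orphan receptor that acts on these genes, averaged 10.5 ± 1.86 TPM and Gabpa 7.82 ± 1.99 TPM (SD, n = 3). Yy1 had 7.89, 6.33 and 8.68 TPM. Nrf1 had 5.61, 3.86 and 5.54 TPM. The coactivator Ppargc1a was all but absent, with 2, 2 and 0 counts. Of the 12 listed regulators, 11 were expressed.

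Chain genes outside the symbol rule, mostly assembly factors under other names, gave 29 expressed of 32 found by symbol, with a median of 7.03 ± 0.85 TPM. Coa1 was also listed but was not found under that symbol. Coa5, for complex IV, was highest with 60.2, 52.7 and 83.9 TPM. Uqcc2, for complex III, averaged 28.0 ± 4.27 and Surf1, for complex IV, 25.6 ± 3.59 TPM. Pet117 was lowest, with 0 counts in all 3 libraries.

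Several members share sequence with processed pseudogenes, and 3 of them are described with theirs. Over windows of 31 bases of each member's leading transcript, 35 of 107 members shared none with another gene, 43 shared at least 10% and 15 shared at least 50%. The partners were mostly silent: of 66 partner genes at 10% or more, 8 reached 1 TPM in all 3 replicates. The 3 pairs described next were chosen after their values were seen. In each, the coding part of the member's leading transcript is found whole and without mismatch in the pseudogene, and every window of 31 bases of the pseudogene's transcript occurs in the member's.

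Ndufb4, an accessory subunit of complex I, was the lowest of the 75 structural members in the gene table, with 8.71, 6.01 and 8.43 TPM. On protein-coding transcripts alone, Ndufs4 at a mean of 6.35 TPM and Ndufa5 at 7.14 TPM were lower than Ndufb4 at 7.67 TPM. Its processed pseudogene Ndufb4c (chromosome 15, 73809507 to 73809896) had 41.6, 33.6 and 34.2 TPM, above the member in every replicate. The pseudogene transcript is 390 bases long, and the member's (chromosome 16, 37647170 to 37654453) is 971. The first 60 coding bases, shown to make the identity plain, read the same in both.
Ndufb4: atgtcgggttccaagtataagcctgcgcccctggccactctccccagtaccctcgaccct
Ndufb4c: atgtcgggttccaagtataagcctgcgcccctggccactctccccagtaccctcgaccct
The TPM of member and pseudogene summed to 50.3, 39.6 and 42.7. The effective length was 759 bases for Ndufb4 and 180 bases for Ndufb4c, so equal counts weigh more in TPM on the pseudogene. The sum is therefore not a level of Ndufb4, and how the shared reads divide was not tested.

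For Atp5g2 the deposited tables disagreed. In the gene table it had 54.2, 43.4 and 65.2 TPM, and its pseudogene Gm10175 (chromosome 7, 23946646 to 23947290) 13.2, 8.46 and 13.7 TPM. In the second transcript table, scaled to the gene table, Atp5g2 had 5.61, 3.94 and 19.1 TPM and Gm10175 66.3, 50.6 and 65.0 TPM. The sums were close, at 66.0 ± 13.6 TPM in the gene table and 70.2 ± 14.8 TPM in the second table (SD, n = 3). The level of the sum was thus alike in both tables, while its division between the 2 genes was not.

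Cox7c had 130.1, 93.8 and 127.5 TPM, beside 202.0, 140.3 and 96.0 TPM for its pseudogene Gm12338 (chromosome 11, 75599763 to 75599954). The Gm12338 values rest on 241, 264 and 168 counts over an effective length of only 20.1 bases. In the second table, scaled, Gm12338 had 63.3, 43.4 and 28.9 TPM, while Cox7c had 125.4, 87.6 and 121.8 TPM.

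For most other members the tables gave like levels. The scaled second table was within 0.8 to 1.25 times the gene table for 94 of the 98 expressed members, or 95.9%, against 92.5% of expressed coding genes. The largest departures were Atp5g2 (0.176 times), Cox6a2 (1.48 times) and Cox7b (1.29 times). The deposited posterior SD of the count, a measure of how far shared reads leave it open, was largest relative to the count for Sdhaf1 (5.16%), Ndufb4 (2.74%) and Atp5g2 (2.54%). The 14 pseudogenes and RNAs that carry a prefix of the rule but fall outside it averaged at most 0.12 TPM, apart from Ndufb4c and Ndufb1-ps. Ndufb1-ps, annotated as a long non-coding RNA, had a mean of 44.8 TPM. The rule leaves it out, and no gene under the symbol Ndufb1 is among the members.

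**Figure D4:**
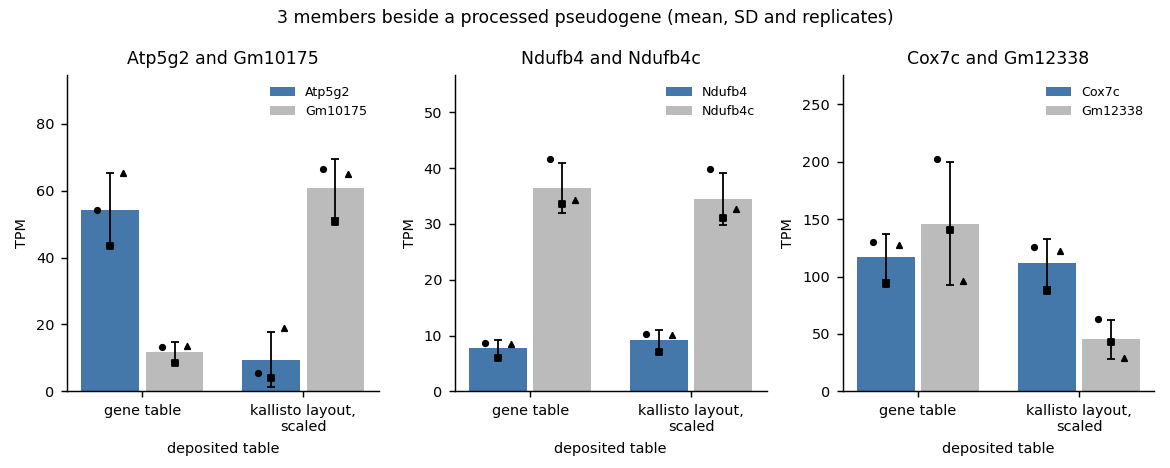
TPM of 3 members (blue) and of a processed pseudogene of each (grey) in the gene table and in the second transcript table after scaling. Bars are means, error bars the SD, and circles, squares and triangles replicates 1, 2 and 3; for Atp5g2 and Cox7c the higher mean of the pair changes between the tables.

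Most chain RNA was on protein-coding transcripts, but a few genes were exceptions. Over the 98 expressed members the median share of gene TPM on protein-coding transcripts was 99.3%, and it was at least 90% for 74. In both transcript tables it was below 50% for 7. Ndufa5 had 15.9% ± 2.87 of its TPM on them (SD, n = 3), with the largest part on a transcript annotated as processed. Ndufs4 had 26.1% ± 1.48, with 72.2% ± 2.34 on transcripts annotated for nonsense-mediated decay. For Sdhaf2 it was 29.4% ± 3.40, with 69.4% ± 4.16 on such transcripts.

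Retained introns took 69.0% ± 2.47 of the TPM of Atp5j and 62.1% ± 4.13 of that of Ndufab1, the mitochondrial acyl carrier protein that also sits in complex I. These shares were weighted by length. By expected counts, protein-coding transcripts held 45.0% ± 2.78 of the reads of Atp5j, 73.8% ± 4.33 of those of Ndufab1 and 88.5% ± 0.91 of those of Atp5b. These genes were named after their values were seen.

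Replicates kept the ranking of the members and differed by small steps. Spearman's rho of TPM across the 98 expressed members was 0.986 to 0.993 between pairs of replicates. The highest replicate exceeded the lowest by a median factor of 1.16 in CPM over the 75 structural subunits. The biological coefficient of variation had a median of 0.120 over the structural subunits, against 0.134 over expressed coding genes and 0.164 over all genes tested.

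At this depth such steps still passed a test of counting error. A Poisson heterogeneity test with Benjamini-Hochberg adjustment called 71 of 100 members tested, or 71%, against 70% of all genes tested and 76.9% of expressed coding genes. A share this near the background says nothing particular about the members. Among structural subunits it called 23 of 37 in complex I, 4 of 4 in complex II, 7 of 8 in complex III, 9 of 10 in complex IV and 16 of 16 in complex V.

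The largest differences among called members were single genes. Cox6a2 had 1.65, 1.42 and 3.74 CPM in replicates 1, 2 and 3, a highest to lowest ratio of 2.64 (adjusted p = 2.41e-16 in the Poisson heterogeneity test across all genes, as for those that follow). Atp5e had 25.8, 33.0 and 41.6 CPM, a ratio of 1.61 (adjusted p = 1.07e-40), and Ndufa2, an accessory subunit of complex I, had 23.1, 27.2 and 35.8 CPM, a ratio of 1.55 (adjusted p = 1.93e-32). Sdhaf3 had 2.53, 1.60 and 2.49 CPM (adjusted p = 0.00224), and Sdhaf4 had 2.85, 3.99 and 4.36 CPM (adjusted p = 0.000449). Replicate 3 was highest for 4 of these 5 genes, and replicate 1 for Sdhaf3.

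As a group, structural subunits sat low in replicate 1 relative to other expressed coding genes. In CPM, 48 of the 75, or 64%, were lowest there, against 38.7% of expressed coding genes and 32.2% of all genes tested. In the same replicate 4 of the 75, or 5.33%, were highest, against 25.9% of expressed coding genes and 34.4% of all genes tested. The median log2 deviation of the subunits was -0.07 in replicate 1, 0.06 in replicate 2 and 0.03 in replicate 3. For expressed coding genes it was -0.02, 0.0035 and 0.02. With DESeq2 size factors the counts of highest were 4, 37 and 34. In TPM taken over protein-coding genes, the scale moved all genes, and the median of the subunits was 0.0049, 0.05 and -0.02, against 0.04, -0.00072 and -0.03 for expressed coding genes. Of the subunits, 28% were highest in replicate 1 on that scale, against 42.1% of expressed coding genes. Relative to the median expressed coding gene, the subunits stood at -0.05, 0.05 and 0.01 in CPM and at -0.03, 0.05 and 0.01 in TPM over protein-coding genes, in replicates 1, 2 and 3. In TPM as deposited, 74 of 75 were lowest in replicate 2, and so were 91.7% of expressed coding genes.

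**Figure D5:**
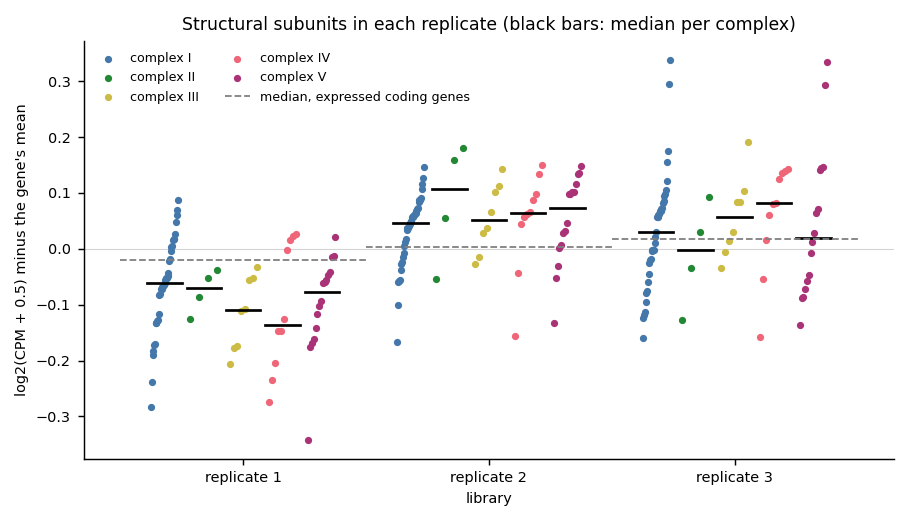
Deviation of log2(CPM + 0.5) from the mean of the gene for the 75 structural subunits in each replicate, by complex. Black bars are the median per complex and the dashed line the median of expressed coding genes; the 5 complex medians lie below it in replicate 1 and above it in replicate 2.

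The 13 subunits encoded by mitochondrial DNA differed more between replicates, with a median biological coefficient of variation of 0.424. Their median was 314, 146 and 75.3 TPM in replicates 1, 2 and 3, and 10 of 13 were highest in replicate 1 in CPM. The ratio of this median to that of the nuclear structural subunits was 6.13, 3.57 and 1.35. Several of these values rest on shared reads, with a posterior SD of 176% of the count for mt-Co3, and how much mitochondrial RNA the cytosolic preparation of each replicate carried was not tested.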

How the data were processed

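Cytosolic total RNA, depleted of ribosomal RNA, was sequenced from 3 replicates of 1 group, on mm10 with GENCODE M21 per the notes deposited with the files. Each library has 1 gene table and 2 transcript tables, all deposited by the authors. The expected count per gene is the authors' estimate, not normalised and rounded here for count tests. The effective length and the posterior SD of the count, used as scores, were deposited by the authors in the gene table. TPM was deposited by the authors over all indexed features. The percent of a gene's TPM per transcript was deposited by the authors and computed again here. Which quantifier, aligner and strand setting were used is not given in the sources used here; column layouts are those of RSEM and kallisto.

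Members and lists were chosen with earlier results of these data known. Named genes are all of complex II, the 3 highest and the lowest structural subunit of the other complexes, complex I core, F1 and c-ring genes, isoform pairs, the highest and lowest assembly factor, the 5 members varying most between replicates, the 3 with most shared reads and the 3 differing most between tables; others were named after their values were seen. A core gene of complex I is not reported here by name. Entries naming no gene took 0.0785%, 0.0521% and 0.0251% of counts and were left out.

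Heterogeneity was tested where the mean count reached 10, on TMM library sizes (edgeR 4.0.16, R 4.3.3) with Benjamini-Hochberg adjustment at 0.05. The test was also run on simulated Poisson counts. Apart from changes put in, these hold counting error only, so that run is no check for libraries with further spread. DESeq2 1.42.0 size factors were an alternative. The second transcript table was scaled to the gene table by the median ratio over expressed coding genes (1.71, 2.67 and 3.41 in replicates 1, 2 and 3). P-values measure only the spread between these samples, which may be technical. Intervals and floors cover counting error only. Promoters came from RefSeq; a protein table was not used here.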

Additional observations from a re-analysis of the deposited data

How the results depend on the processing

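The order of the complexes, IV, V, III, II, I, was kept with either transcript source, within protein-coding genes or transcripts, with Ndufa4 in complex IV, with pseudogene partners added, over long mRNAs and without each replicate. Over every member of the rule it was V, III, I, II, IV, with complex II at 26.6 TPM and complex IV at 22.6 TPM; log2 differences were then -1.55 for IV minus V, -1.51 for IV minus III, -0.13 for IV minus II, -0.31 for IV minus I and -0.18 for II minus I. In CPM not divided by length, medians were 23.6, 90.1, 45.1, 64.6 and 56.2 CPM for complexes I to V, and differences were 0.19 (IV minus V), 0.50 (IV minus III), -0.47 (IV minus II), 1.41 (IV minus I), -0.66 (V minus II) and -0.97 (III minus II). Unscaled TPM of the second transcript table gave medians of 12.7, 18.6, 25.8, 50.9 and 28.2 for complexes I to V, and 1.90 for IV minus I. TPM over protein-coding genes gave 98.7, 144.6, 208.4, 402.5 and 224.8. IV minus III was 1.02 with pseudogene partners added and 1.03 on protein-coding transcripts, where IV minus I was 2.10. Adding partners sums TPM over unlike effective lengths, 20.1 bases for Gm12338 and 316 for Cox7c. That alternative therefore cannot decide how shared reads bear on the levels. Over subunits with an effective length of at least 300 bases, complex III was at 58.0 TPM and IV exceeded V, III and I by 0.94, 1.29 and 2.06. The last 3 alternatives and the scaled second table were chosen after seeing the data. Isoform differences kept their sign under every alternative run. Their p was already the smallest that 3 replicates allow, so it cannot show how far they depend on the processing. Members called by the heterogeneity test numbered 46 to 56 with a replicate left out (46 without replicate 1), against 71 with all 3, and background shares fell too, to 49.8% to 53.8%. Without a filter on low counts the median coefficient of variation of all genes was 0.38. No paired analysis was possible because the study holds 1 group. Low counts limit Cox6b2, Cox7a1 and Ndufa4l2, and reads shared with pseudogenes limit Atp5g2, Ndufb4 and Cox7c.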
